A study of Mus musculus with 8 samples.

Results

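The levels of 10 genes of iron, haem and metal handling were followed in left ventricle of mice from a study of dilated cardiomyopathy: Tfrc, Slc11a2, Fth1, Ftl1, Slc40a1, Alas1, Fech, Hmox1, Mt1 and Mt2. They were picked by name from a table of 55385 genes, each symbol matched 1 row, and all 10 passed the filter on low counts. RNA-seq libraries came from male C57BL6 mice, 4 libraries from mice carrying an Mst1 transgene (Mst1-TG) and 4 from mice labelled WT. The growth protocol describes the WT mice as littermates without the transgene. The labels do not say that the libraries of a group come from separate animals. The transgene is driven by the alpha-myosin heavy chain promoter, so it is expressed in cardiomyocytes, and it encodes a kinase of the Hippo pathway. The design text places the mice at 3 weeks of age, the extraction protocol gives 3 months, and the growth protocol names both 3-week mice and adults of 5.5 months. Only these 2 groups are compared, and the question is how the left ventricle of Mst1-TG mice differs from that of WT mice.

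Cells take up iron bound to transferrin through the transferrin receptor (Tfrc), the transporter DMT1 (Slc11a2) carries it out of endosomes, ferritin made of heavy (Fth1) and light (Ftl1) chains stores it, and ferroportin (Slc40a1) exports it. Haem is built in a pathway that starts in mitochondria with 5-aminolevulinate synthase (Alas1 in most tissues, Alas2 in erythroid cells) and ends there when ferrochelatase (Fech) inserts iron, and haem oxygenase (Hmox1) breaks haem down. Metallothioneins (Mt1, Mt2) are small cysteine-rich proteins that bind zinc and copper. The heart needs iron and haem for the respiratory chain and for myoglobin. Iron-regulatory proteins bind a hairpin, the iron-responsive element, in some of these mRNAs: in a 5′ UTR they block translation, and in the 3′ UTR of Tfrc they protect the mRNA from decay.

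The hairpins are shown because they are the known site of iron control in these mRNAs, and the values below are mRNA levels. They were searched in GENCODE M21 transcripts (GRCm38), on the sense strand only, as a C, then 5 bases, then CAGTGN, then 5 bases that pair with the first 5 (A with T, G with C or G with T). Capitals mark the C and the 6 loop bases. Matches lay in the 5′ UTR of 3 of the 10 genes and in the 3′ UTR of 1, with 4 matches in Tfrc, none of which overlapped. So strict a pattern can miss known elements: an isoform of Slc11a2 is known to carry one in its 3′ UTR, and no match was found there. Of 21901 protein-coding genes, 0.142% held a match in a 5′ UTR and 0.589% in a 3′ UTR.
Fth1, 5′ UTR, chr19:9982732-9982760, forward strand: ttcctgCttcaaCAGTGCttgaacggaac
Ftl1, 5′ UTR, chr7:45459779-45459807, reverse strand: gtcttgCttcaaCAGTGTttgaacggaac
Slc40a1, 5′ UTR, chr1:45925465-45925493, reverse strand: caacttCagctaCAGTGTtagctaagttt
Tfrc, 3′ UTR, chr16:32631219-32631247, forward strand: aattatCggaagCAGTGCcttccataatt
Tfrc, 3′ UTR, chr16:32631598-32631626, forward strand: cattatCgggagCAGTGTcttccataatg
Tfrc, 3′ UTR, chr16:32631663-32631691, forward strand: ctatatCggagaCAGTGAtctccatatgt
Tfrc, 3′ UTR, chr16:32631710-32631738, forward strand: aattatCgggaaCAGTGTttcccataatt

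The libraries held 21193536 to 23809256 estimated counts. Levels are given as CPM (counts scaled to a common library size) scaled by TMM, a method that sets the bulk of genes equal between libraries. Stk4, the mouse gene of the kinase, stood at 25.2 to 29.6 CPM in WT and 1449 to 1747 CPM in Mst1-TG, as the labels say. Mitochondrially encoded genes took 21.4% to 23.8% of the counts in WT and 12.9% to 14.4% in Mst1-TG. Cardiomyocyte markers summed to 46547 to 55580 CPM in WT and 30856 to 41178 in Mst1-TG. Myh6 held 21712 CPM of a mean sum of 52443 in WT. Of the 10 markers 7 fell (edgeR adjusted p below 0.05), 3 did not pass and 0 rose, beside 21.1% of all genes lower. With TMM the log2 fold changes of these markers ran from -1.55 (Ckm) to 0.073 (Ttn). When libraries were scaled by their totals alone, 5 of the markers fell and 2 rose, beside 10.4% and 48.4% of all genes. Fibroblast markers summed to 2784 to 3702 and 6612 to 9101 CPM. In these bulk samples, fewer cells of a type and less RNA per cell cannot be told apart, and the part of these shifts in the results below was not tested. On the second principal component (7.33% of the variance), WT 4 (-16.8) and Mst1-TG 1 (-21.6) stood away from the other 6 libraries (0.678 to 12.4). Adipocyte markers summed to 15.6 and 11.3 CPM in those 2 libraries and to 0.167 to 3.59 CPM in the other 6. Smooth muscle and pericyte markers summed to 1620 to 1977 CPM in WT and 1184 to 1449 CPM in Mst1-TG. Of these 8 markers 3 fell and 2 rose, beside 21.1% and 21.2% of all genes. Scaled by library totals alone, 1 of them fell and 4 rose, beside 10.4% and 48.4% of all genes. The part of either marker set in the results below was not tested.

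Alas1, Fth1, Slc40a1 and Fech fell in Mst1-TG ventricle and Mt2 rose, while Tfrc, Slc11a2, Ftl1, Hmox1 and Mt1 did not pass an edgeR adjusted p of 0.05. That is 5 of 10 genes called, beside 42.3% of all 15314 genes tested, so the share called is near the background. Of the 10, 4 were lower (21.1% of all genes) and 1 was higher (21.2%), and in the same 5 genes the 2 groups of libraries did not overlap (40.3% of all genes). The median log2 fold change of the 10 was -0.14, beside 0.0077 over all genes tested. When libraries were scaled by their totals alone (library-total scaling), the median over all genes moved to 0.29 and that of the 10 genes to 0.14. The calls were then 3 higher and 3 lower, beside 58.8% of all genes called: Ftl1 and Slc11a2 became higher and Fech no longer passed.

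**Figure D1:**
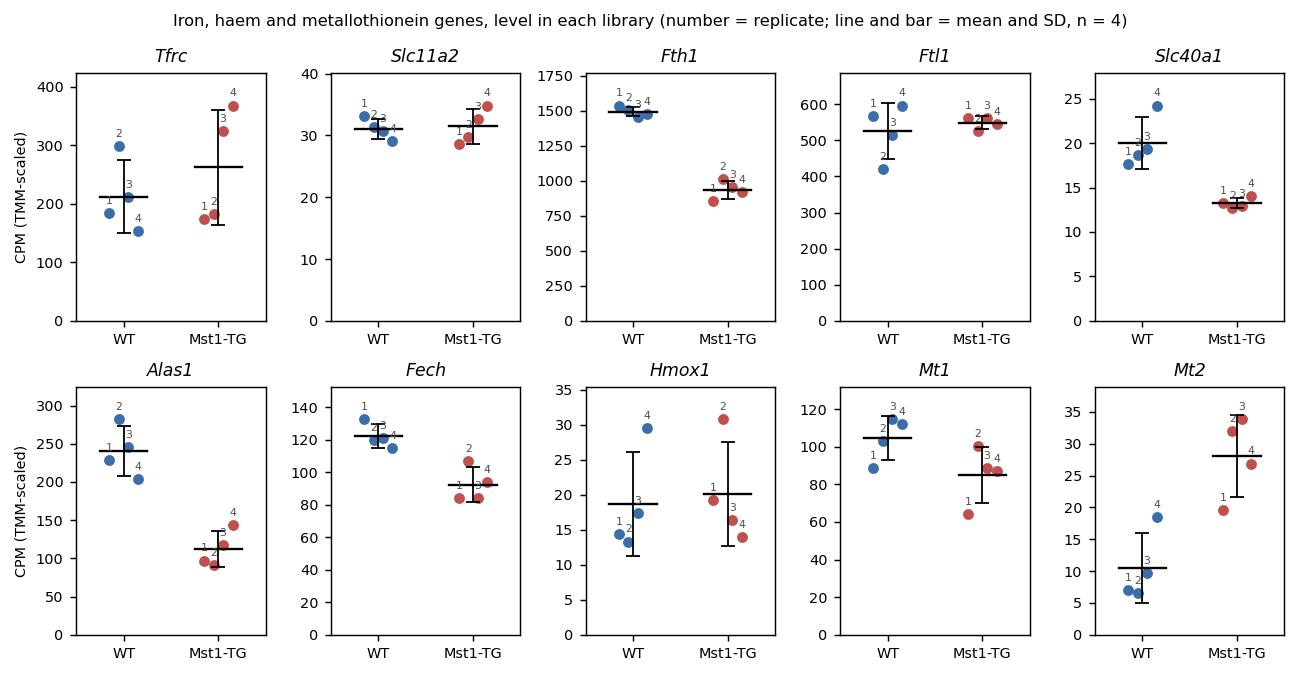
Level of each of the 10 genes in CPM (vertical axis, from 0) in the 4 WT (blue) and 4 Mst1-TG (red) libraries, numbered by replicate, with the mean and SD. Fth1, Slc40a1, Alas1 and Fech lie lower in all 4 Mst1-TG libraries and Mt2 higher, while the groups overlap in the other 5 genes.

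Levels between genes can be compared only per length, here as CPM per kilobase of the longest annotated transcript. In WT the ferritin chains led, Fth1 at 725 ± 16.6 and Ftl1 at 543 ± 79.5 CPM per kilobase (SD, n = 4). Below them came Mt1 (96.4 ± 10.8), Alas1 (70.6 ± 9.67), Tfrc (43.3 ± 12.7), Mt2 (20.5 ± 10.9), Fech (18.6 ± 1.12), Hmox1 (11.9 ± 4.76), Slc11a2 (7.04 ± 0.375) and Slc40a1 (5.09 ± 0.742), all in CPM per kilobase. From Mt1 down to Hmox1 each gene's range overlapped that of the next, whereas the ranges of Fth1, Ftl1 and Mt1 were separate. In Mst1-TG the same scale put Ftl1 (567 ± 17.6) above Fth1 (455 ± 31.7), without overlap. That order rests on the length used: with the mean transcript length Fth1 stayed above Ftl1 in Mst1-TG (1040 ± 72.5 against 724 ± 22.4). The order in WT rests on it too. There the mean length put Alas1 (149.9) above Mt1 (138), Fech (48.9) above Mt2 (23.3) and Slc11a2 (23.1) above Hmox1 (15.9).

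**Figure D2:**
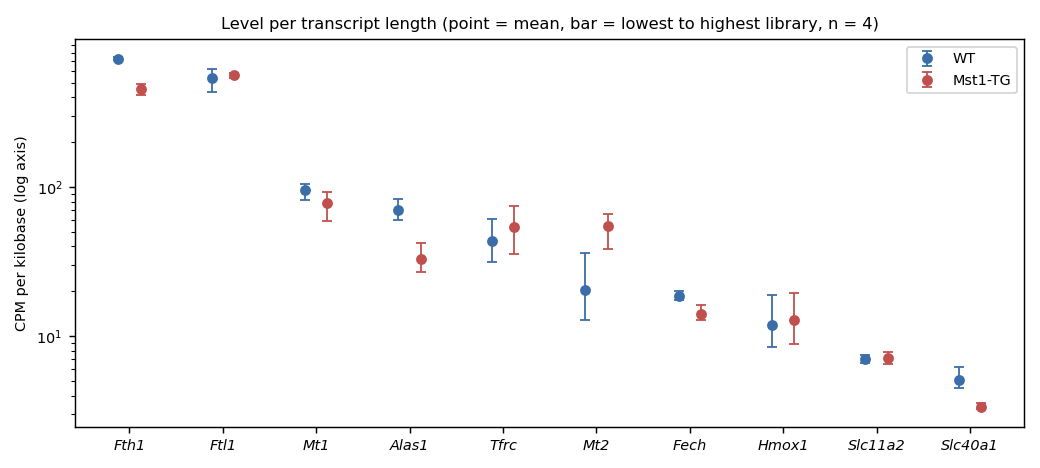
Level per kilobase of longest transcript (log axis) of each gene, ordered by its WT mean, with points for the group means and bars from the lowest to the highest of 4 libraries. Fth1 and Ftl1 stand above the other 8 genes in both groups, and Mt2 moves up in Mst1-TG.

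Among the uptake genes, Tfrc (ENSMUSG00000022797.16, chromosome 16, 32608920 to 32632794) varied widely inside both groups. Its level was 184, 298, 211 and 153 CPM in WT 1 to 4 and 175, 183, 324 and 368 CPM in Mst1-TG 1 to 4. Mst1-TG 3 and 4 lay above every WT library, and Mst1-TG 1 and 2 lay inside the WT range. On the log2 scale the fold change was 0.31 ± 0.32 (SE, edgeR adjusted p = 0.485), with a 95% interval from -0.44 to 1.06, which includes more than a doubling. Under library-total scaling it was 0.60 (adjusted p = 0.138), and without Mst1-TG 4 it was 0.10 (adjusted p = 0.826). Slc11a2 (chromosome 15, 100387898 to 100425072) was nearly level, at 29.1 to 33.1 CPM in WT and 28.7 to 34.8 CPM in Mst1-TG. Its log2 fold change of 0.019 ± 0.077 (SE, edgeR adjusted p = 0.872) had an interval from -0.15 to 0.19, and under library-total scaling it was 0.31 (adjusted p = 0.00454).

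The ferritin chains parted. Fth1 (ENSMUSG00000024661.7, chromosome 19, 9980598 to 9985098) encodes the heavy chain, which oxidises ferrous iron for storage. It was at 1538, 1503, 1459 and 1480 CPM in WT 1 to 4 and at 859, 1016, 953 and 921 CPM in Mst1-TG 1 to 4. All 4 Mst1-TG libraries lay well below the lowest WT library. The log2 fold change was -0.67 ± 0.07 (SE), a level 1.60-fold lower, with an edgeR adjusted p of 7.8e-06, and it was -0.39 under library-total scaling (adjusted p = 4.2e-04). Ftl1 (ENSMUSG00000050708.16, chromosome 7, 45457944 to 45459884), the light chain that supports the mineral core, was at 568, 422, 515 and 596 CPM in WT and at 562, 526, 562 and 546 CPM in Mst1-TG. The Mst1-TG libraries lay within the WT range, whose lowest value was WT 2. Its log2 fold change of 0.064 ± 0.10 (SE, edgeR adjusted p = 0.635) had a 95% interval from -0.15 to 0.27. Under library-total scaling it was 0.35 and passed (adjusted p = 0.012), and without WT 2 it was -0.027.

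A ratio of 2 genes inside 1 library does not depend on how libraries are scaled. A set of 4 such ratios was tested, chosen after the values were known, with Benjamini-Hochberg adjustment over the 4. The adjustment does not cover that choice, so the p-values of the ratios are descriptive and no conclusion is drawn from them. The Fth1 to Ftl1 ratio of counts was 2.71, 3.56, 2.83 and 2.48 in WT 1 to 4 and 1.53, 1.93, 1.70 and 1.69 in Mst1-TG 1 to 4. Every Mst1-TG library had the lower ratio, by 1.68-fold on average (two-sided exact permutation p = 0.0286, the lowest possible with 4 against 4, adjusted p = 0.0381). Near-identical copies held few counts: 5 other genes share at least 10% of the 31-base runs of Ftl1, and they held 68 counts in all beside 95753 for Ftl1. No other gene shared 10% of the runs of Fth1 or of the other 8 genes.

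**Figure D3:**
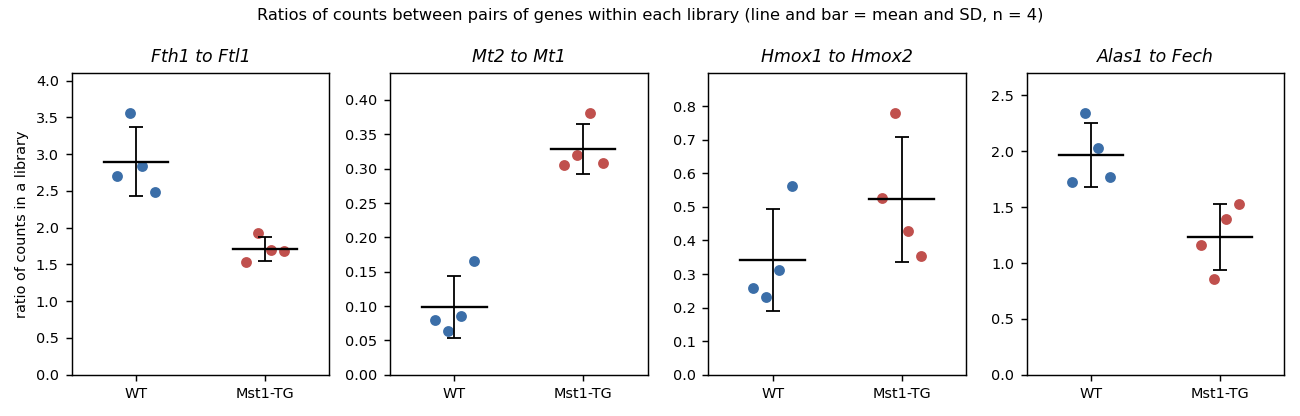
Ratio of estimated counts between 2 genes within each library (vertical axes, from 0) for 4 pairs, in WT (blue) and Mst1-TG (red), with the mean and SD. The Fth1 to Ftl1 and Alas1 to Fech ratios are lower and the Mt2 to Mt1 ratio is higher in all 4 Mst1-TG libraries, and the Hmox1 to Hmox2 ratio overlaps.

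Slc40a1 (ENSMUSG00000025993.10, chromosome 1, 45908068 to 45926523) encodes ferroportin, the known exporter of iron from cells. It was at 17.7, 18.7, 19.4 and 24.2 CPM in WT 1 to 4 and at 13.2, 12.7, 13.0 and 14.1 CPM in Mst1-TG 1 to 4. The groups did not overlap, and WT 4 was the highest library. Its log2 fold change was -0.59 ± 0.10 (SE, edgeR adjusted p = 4.3e-04), a level 1.51-fold lower. It was -0.49 without WT 4 (adjusted p = 8.3e-04) and -0.31 under library-total scaling (adjusted p = 0.0315). Macrophages are known for high ferroportin. Of 12 macrophage markers 2 fell, Cd163 and Lyve1, and none rose, beside 21.1% and 21.2% of all genes. This turned to 6 higher and 0 lower under library-total scaling. There 48.4% of all genes were higher and 10.4% lower, so the share of markers higher is near the background. The summed level of the 12 overlapped between groups (411 to 528 CPM in WT and 409 to 566 in Mst1-TG).

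Of 10 tested genes of iron uptake and transport 3 rose and 2 fell, near the 42.3% of all genes called in either direction. Their median log2 fold change was 0.10. Library-total scaling moved the median to 0.39, with 4 higher and 1 lower, beside 48.4% and 10.4% of all genes. Trf, which encodes transferrin, was at 48.1 to 58.0 CPM in WT and 67.6 to 94.3 CPM in Mst1-TG, 0.49 ± 0.11 higher on the log2 scale (edgeR adjusted p = 0.00238). The metalloreductase Steap2 rose by 0.90 ± 0.22 from a low level (1.65 ± 0.255 to 3.08 ± 0.730 CPM), whereas its relative Steap4 changed by -0.51 ± 0.08. The metal importer Slc39a14 changed by -0.37 ± 0.10, and under library-total scaling it did not pass (-0.09, adjusted p = 0.421).

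Of 10 tested genes of storage, export and the hepcidin axis 4 fell and 1 rose (median -0.13), beside 21.1% and 21.2% of all genes. Under library-total scaling 1 fell and 3 rose (median 0.16), beside 10.4% and 48.4% of all genes. The member with the smallest p was Hjv, which encodes haemojuvelin, a BMP co-receptor that skeletal muscle and heart express. It fell from 166 to 208 CPM in WT to 72.5 to 88.5 CPM in Mst1-TG (log2 fold change -1.20 ± 0.09 SE, edgeR adjusted p = 2.0e-07). Cp, the ferroxidase ceruloplasmin, rose by 0.69 ± 0.11 (adjusted p = 3.0e-04). Ncoa4, the cargo receptor that delivers ferritin to autophagy, changed by -0.26 ± 0.07, and Hfe by -0.32 ± 0.08. Neither passed under library-total scaling (0.024 and -0.031). Hamp, the hormone hepcidin, was near 1 CPM in both groups (0.909 ± 0.538 and 0.899 ± 0.492, SD, n = 4). Mitochondrial ferritin, Ftmt, had no counts in any library.

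Of the 3 iron-regulatory genes 2 fell and 0 rose, and under library-total scaling 0 fell and 1 rose. Over all genes 21.1% fell and 21.2% rose, and 10.4% and 48.4% under library-total scaling. Ireb2, which encodes iron-regulatory protein 2, missed the threshold (67.2 ± 2.29 CPM in WT and 68.9 ± 3.58 in Mst1-TG, log2 0.034 ± 0.060, edgeR adjusted p = 0.686), and under library-total scaling it was 0.32. Aco1, iron-regulatory protein 1 and cytosolic aconitase, changed by -0.22 ± 0.07 (adjusted p = 0.0182). That call was lost without WT 1 (-0.18, adjusted p = 0.0636), and under library-total scaling the value was 0.066. Fbxl5, which marks the iron-regulatory proteins for degradation, changed by -0.29 ± 0.08, and by -0.0020 under library-total scaling.

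**Figure D4:**
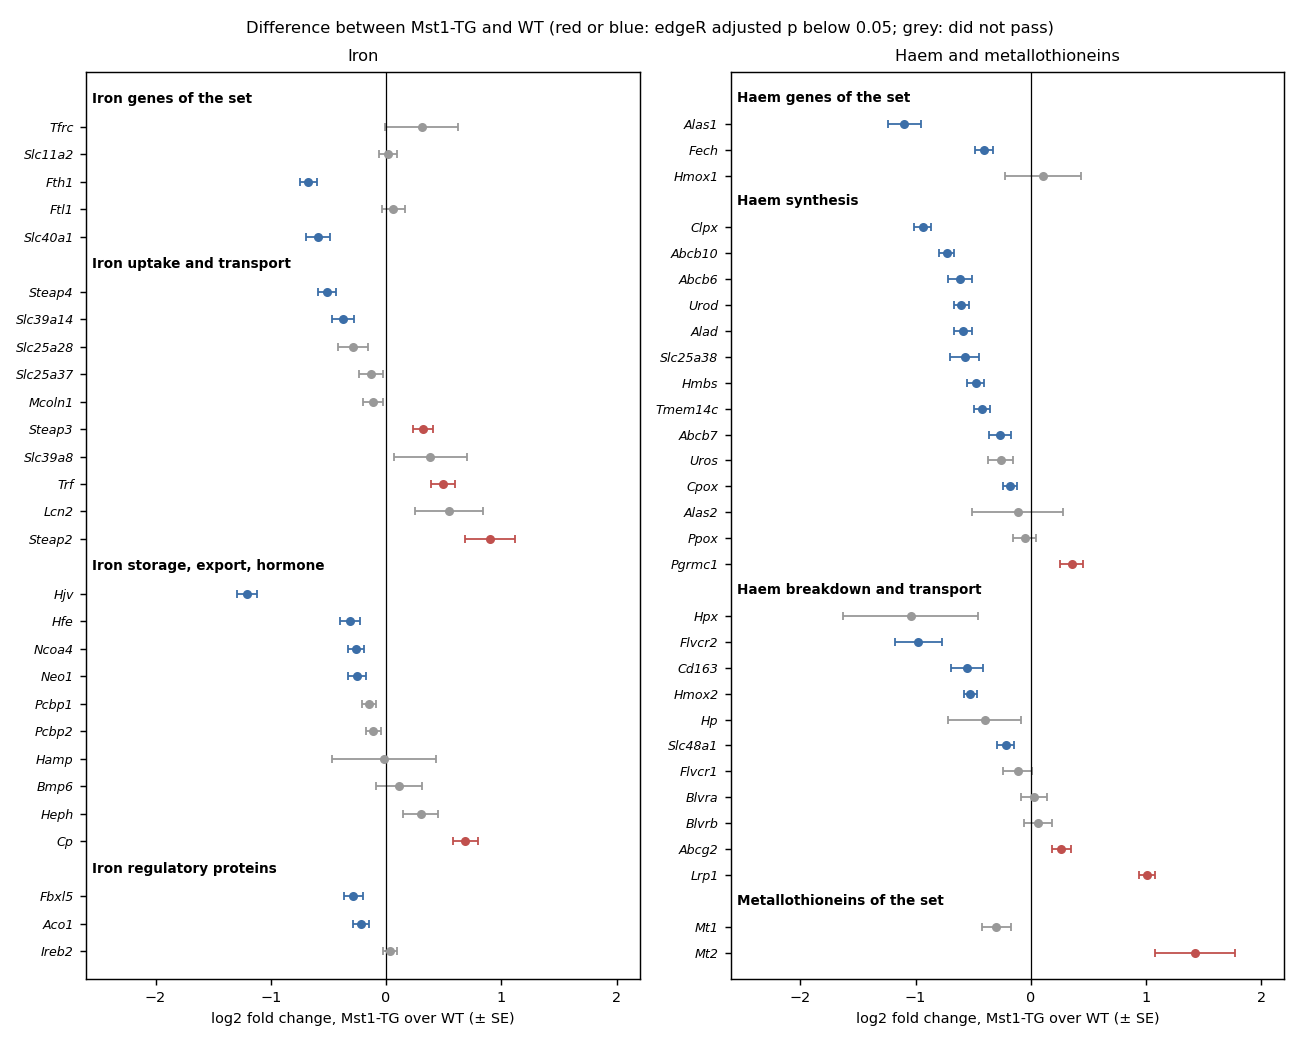
Log2 fold change of Mst1-TG over WT with its SE (horizontal axis) for the 10 genes and the tested members of the iron and haem lists, coloured where the edgeR adjusted p was below 0.05 and grey where it was not. Haem synthesis genes lie mostly left of 0, with 10 of 14 lower, while iron genes lie on both sides.

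The mRNAs of Alas1 and Fech, which act at the first and last steps of haem synthesis, were lower. Alas1 (ENSMUSG00000032786.16, chromosome 9, 106233455 to 106248654), the rate-limiting enzyme outside erythroid cells, was at 229, 282, 246 and 203 CPM in WT 1 to 4. In Mst1-TG 1 to 4 it was at 97.2, 91.2, 117 and 144 CPM, all below the lowest WT library. The log2 fold change was -1.10 ± 0.15 (SE), a level 2.14-fold lower (edgeR adjusted p = 1.3e-04), and under library-total scaling it was -0.81. Fech (ENSMUSG00000024588.9), which inserts iron into protoporphyrin, was at 132, 120.1, 121 and 115 CPM in WT and at 84.0, 107, 84.0 and 94.2 CPM in Mst1-TG. The groups did not overlap, and Mst1-TG 2 came nearest to WT. Its log2 fold change of -0.41 ± 0.08 (SE, edgeR adjusted p = 0.00131) dropped to -0.12 under library-total scaling and then did not pass (adjusted p = 0.177). The Alas1 to Fech ratio was 1.73, 2.35, 2.03 and 1.77 in WT and 1.16, 0.855, 1.39 and 1.53 in Mst1-TG, lower in 4 of 4 libraries (two-sided exact permutation p = 0.0286, adjusted p = 0.0381). This pair too was chosen after its values were known, so that p-value is descriptive only.

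Of 14 other genes of haem synthesis and its transporters 10 fell and 1 rose, with a median of -0.45, beside 21.1% of all genes lower. Under library-total scaling 6 fell and 1 rose, with a median of -0.17, beside 10.4% of all genes lower and 48.4% higher. Clpx, the mitochondrial unfoldase that acts on Alas enzymes, was at 92.6 to 103 CPM in WT and 46.2 to 57.7 in Mst1-TG (-0.94 ± 0.07). The inner-membrane transporter Abcb10 changed by -0.73 ± 0.07, uroporphyrinogen decarboxylase Urod by -0.60 ± 0.07 and Alad, which joins 2 aminolevulinate molecules, by -0.59 ± 0.07. All 4 passed (edgeR adjusted p = 3.9e-07, 1.7e-06, 1.0e-05 and 2.9e-05), also under library-total scaling. The gene that rose was Pgrmc1, a haem-binding membrane protein (0.35 ± 0.10). These genes fell in libraries whose mitochondrial share of counts and summed cardiomyocyte markers were also lower, and the part of either was not tested.

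Alas2, the erythroid enzyme, varied more between libraries than between groups. It was at 262 CPM in WT 1 and 74.5 to 123 in the other WT libraries, and at 99.97 to 154 CPM in Mst1-TG (log2 -0.12 ± 0.40 SE, edgeR adjusted p = 0.848). Globin genes summed to 14650 CPM in WT 1, 5783 to 9277 in the other WT libraries and 3492 to 7515 in Mst1-TG. WT 1 was highest in both, and Mst1-TG 3 was the lowest Mst1-TG library in both. Of 9 erythroid markers tested 1 rose and 0 fell, 2 rose and 0 fell under library-total scaling, and 1 rose and 3 fell without WT 2 or with the replicate number as a block. With limma-voom or without Mst1-TG 2, 0 rose and 0 fell. Over all genes 21.2% rose and 21.1% fell with TMM, and 48.4% and 10.4% under library-total scaling. The part of blood in these values was not tested.

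For haem breakdown, Hmox1 (ENSMUSG00000005413.8, chromosome 8, 75093621 to 75100589), the inducible haem oxygenase, did not differ beyond its spread. It was at 14.4, 13.3, 17.4 and 29.6 CPM in WT 1 to 4 and at 19.3, 30.8, 16.4 and 14.01 CPM in Mst1-TG 1 to 4. WT 4 and Mst1-TG 2 were high and the other 6 libraries lay together. The log2 fold change was 0.11 ± 0.33 (SE, edgeR adjusted p = 0.827), with a 95% interval from -0.66 to 0.88, and it was -0.17 without Mst1-TG 2. Hmox2, the constitutive enzyme, fell from 52.6 to 57.5 CPM in WT to 36.6 to 39.6 CPM in Mst1-TG (-0.52 ± 0.06, adjusted p = 1.1e-05). The Hmox1 to Hmox2 ratio was 0.341 ± 0.151 in WT and 0.523 ± 0.186 in Mst1-TG (SD, n = 4, two-sided exact permutation p = 0.143, adjusted p = 0.143).

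Of 11 other genes of haem breakdown and transport 4 fell and 2 rose (median -0.22), beside 21.1% and 21.2% of all genes. This turned to 2 lower and 4 higher under library-total scaling (median 0.066), beside 10.4% and 48.4% of all genes. Lrp1, a large endocytic receptor with many ligands, haem-haemopexin among them, stood at 255 ± 7.40 CPM in WT and rose to 514 ± 35.1 in Mst1-TG (log2 1.01 ± 0.07, edgeR adjusted p = 1.5e-07). Flvcr2 changed by -0.98 ± 0.21 at a low level (2.82 ± 0.306 to 1.43 ± 0.255 CPM). Cd163, the macrophage receptor for haptoglobin-haemoglobin, changed by -0.55 ± 0.14, and under library-total scaling it did not pass (-0.27, adjusted p = 0.108). The biliverdin reductase Blvrb did not pass (0.064 ± 0.12), but under library-total scaling it did (0.35, adjusted p = 0.0382).

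The metallothioneins also parted, although the genes are neighbours. Mt2 (ENSMUSG00000031762.7) spans 94172664 to 94173568 and Mt1 (ENSMUSG00000031765.8) 94179082 to 94180327 on the forward strand of chromosome 8 in GRCm38, with 5513 bases between them. Mt2 was at 7.03, 6.62, 9.75 and 18.5 CPM in WT 1 to 4 and at 19.6, 32.0, 33.8 and 26.9 CPM in Mst1-TG 1 to 4. The groups did not overlap, but WT 4, the highest WT library, came close to Mst1-TG 1. The log2 fold change was 1.42 ± 0.35 (SE), a level 2.68-fold higher (edgeR adjusted p = 0.0123), and 1.85 without WT 4 (adjusted p = 1.1e-04). Over the 15 alternatives it ran from 1.26 to 1.85, and the highest adjusted p of those fits was 0.0464. An antisense gene, Gm45774, overlaps Mt2 and held 49 counts beside 3547 for Mt2.

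Mt1 was the more abundant of the pair and leaned the other way. It was at 88.7, 103, 114 and 112 CPM in WT 1 to 4 and at 64.2, 100.2, 88.6 and 87.2 CPM in Mst1-TG 1 to 4, with Mst1-TG 2 inside the WT range and the other 3 Mst1-TG libraries below it. The log2 fold change of -0.30 ± 0.13 (SE) did not pass (edgeR adjusted p = 0.082). It passed without WT 1 (-0.37, adjusted p = 0.0406) or without Mst1-TG 2 (-0.39, adjusted p = 0.0317), and under library-total scaling it was -0.016. The Mt2 to Mt1 ratio of counts was 0.0793, 0.0644, 0.0852 and 0.165 in WT 1 to 4 and 0.305, 0.320, 0.382 and 0.308 in Mst1-TG 1 to 4. It was 3.56-fold higher on average and higher in 4 of 4 Mst1-TG libraries than in any WT library (two-sided exact permutation p = 0.0286, adjusted p = 0.0381). The pair was chosen after its values were known, so that p-value is descriptive only.

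The stretches before both annotated starts are shown to place known metal-binding motifs in the sequence, and whether they bear on the values was not tested. They are the 250 bases before each RefSeq start in GRCm38.p6, forward strand. For Mt2 that start lies upstream of the GENCODE one. For Mt1, 2 of the 3 GENCODE transcripts start downstream of the window, so elements just before those starts are not in it, and the 2 windows are not compared. Capitals mark the core of the metal response element, which the zinc sensor Mtf1 is known to bind, searched on both strands as TGCACNC or TGCGCNC. The Mt2 window held 3 matches, starting at -223, -128 and -50 from the start site, and the Mt1 window 1, at -23, and none overlapped another. One match or more was in 21.4% of 32851 promoter windows of the same length, and 3 or more were in 1.26%.
Mt2, chr8:94172368-94172617: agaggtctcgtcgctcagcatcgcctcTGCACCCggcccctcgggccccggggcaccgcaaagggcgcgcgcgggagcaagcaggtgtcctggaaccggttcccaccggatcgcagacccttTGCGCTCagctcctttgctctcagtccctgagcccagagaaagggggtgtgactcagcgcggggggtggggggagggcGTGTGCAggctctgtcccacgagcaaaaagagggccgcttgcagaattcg
Mt1, chr8:94178839-94179088: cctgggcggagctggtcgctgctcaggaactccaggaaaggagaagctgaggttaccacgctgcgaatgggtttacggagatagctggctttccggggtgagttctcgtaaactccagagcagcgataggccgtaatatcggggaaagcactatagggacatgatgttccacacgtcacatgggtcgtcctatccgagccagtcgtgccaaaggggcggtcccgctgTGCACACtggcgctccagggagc

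Mtf1 itself (WT 22.2 ± 1.95, Mst1-TG 20.7 ± 2.49 CPM) and its target Slc30a1, the zinc exporter (45.6 ± 5.52 and 43.8 ± 7.52 CPM), did not pass (edgeR adjusted p = 0.435 and 0.736). Both leaned lower and turned higher under library-total scaling (0.18 and 0.22). Mt4 had no counts, and Mt3 was under 2 CPM in every library. Of 22 tested zinc and copper genes 9 rose and 2 fell (median 0.12), beside 21.2% and 21.1% of all genes. Under library-total scaling 14 rose and 0 fell (median 0.41), beside 48.4% and 10.4% of all genes. Slc39a6, a zinc importer, went from 7.44 to 9.63 CPM in WT to 27.3 to 36.6 CPM in Mst1-TG (1.90 ± 0.11, edgeR adjusted p = 5.1e-08). Slc39a13, known for its role in connective tissue, rose by 0.78 ± 0.09, Slc30a4 by 0.46 ± 0.08 and Slc39a1 by 0.39 ± 0.07. Fibroblast markers were higher in the same libraries (10 of 10 rose), and their part in these values was not tested.

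Of 12 transcription factors known to act on these genes, with their coactivators and regulators, 3 fell and 2 rose (median 0.10). Over all genes 21.1% fell and 21.2% rose. Under library-total scaling 1 fell and 8 rose (median 0.39), beside 10.4% and 48.4% of all genes. Ppargc1a, a coactivator known to raise Alas1 transcription in liver, changed by -1.76 ± 0.25. Hif1a, an activator of Tfrc and Hmox1 in hypoxia, rose by 0.51 ± 0.07 and Mafk, a partner of Bach1 and Nfe2l2, by 0.41 ± 0.09. Epas1 changed by -0.47 ± 0.13, and did not pass under library-total scaling (-0.18). Bach1, the haem-sensing repressor of Hmox1, changed by -0.21 ± 0.07 (edgeR adjusted p = 0.027). The Bach1 call was lost without WT 3, Mst1-TG 1 or Mst1-TG 4 (adjusted p = 0.0916, 0.0702 and 0.0805), and under library-total scaling the value was 0.073. Nfe2l2, the activator of antioxidant genes, missed the threshold (75.4 ± 3.03 and 73.8 ± 3.81 CPM, adjusted p = 0.712), and under library-total scaling it was 0.25 and passed (adjusted p = 0.00251).

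For each gene the 3 genes with the most similar profile over the 8 libraries were found among 12598 genes, by the root mean square difference of log2 CPM centred on each gene's mean. Fth1 was followed closely by Map7, Spg7 and Ralgapa2 (differences of 0.0401, 0.0553 and 0.0566 log2 units, beside a median of 0.376 over all genes). For Alas1 the nearest was 1110018N20Rik (0.0864, median 0.61), and for Slc40a1 Iba57 (0.0633, median 0.348). For Mt2 the differences were larger, and so was the median: Eya2, Krt19 and Runx2 differed by 0.291, 0.305 and 0.311 (median 0.874). Tfrc and Hmox1 were nearest to Wasf3 (0.206, median 0.483) and Cyp4f17 (0.244, median 0.477).

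**Figure D5:**
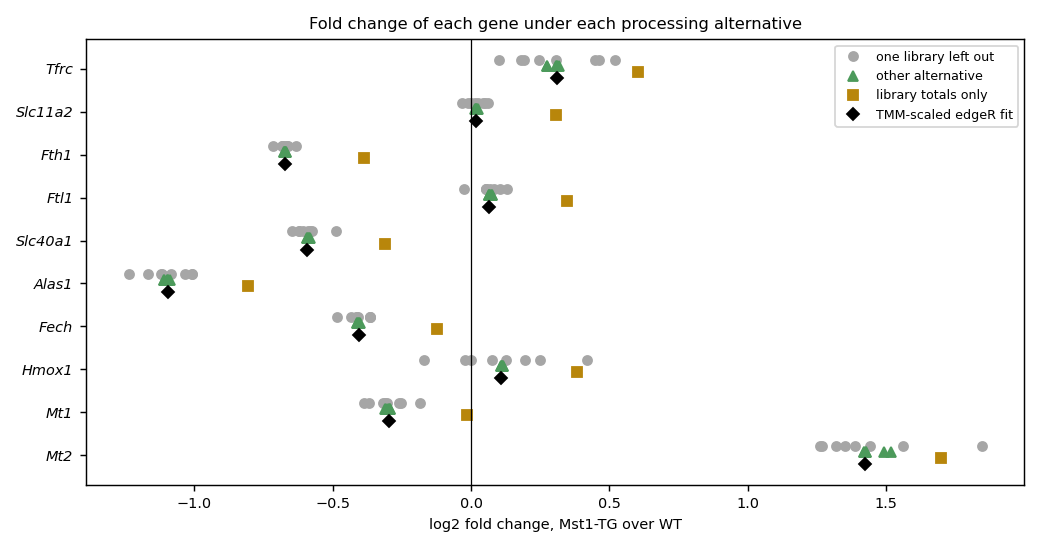
Log2 fold change of Mst1-TG over WT (horizontal axis) of each gene in the TMM-scaled edgeR fit (black), with 1 library left out (grey), with library totals only (gold) and in the other alternatives (green). Mt2 stays right of 0 and Fth1, Slc40a1 and Alas1 left of 0 in all of them, while library totals only shift every gene to the right.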

How the data were processed

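The authors deposited 1 table of estimated counts per gene (whole numbers, not scaled). The submitters' processing notes list bcl2fastq 2.19.1.403 and kallisto 0.46.0. Genome build, annotation and strand setting: not given in the sources used here. Of 55385 gene identifiers, 54487 match GENCODE M21. Per the labels' protocols, ribosomal RNA was removed from 200 ng of RNA before a directional library was made.

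The estimated counts were fitted in R 4.3.3 with edgeR 4.0.16 (filterByExpr with a minimum count of 10 and total of 15, 15314 genes kept; TMM; robust quasi-likelihood test; Benjamini-Hochberg adjustment over all genes tested, threshold 0.05). SE is the log2 fold change divided by the root of F. The biological coefficient of variation was 11.4% and the median SE 0.111. Alternatives used DESeq2 1.42.0, limma 3.58.1 (voom) and other scalings. Counts were simulated for Mst1-TG and WT (15089 genes), with 100 genes set to change 2-fold and 100 set to change 1.5-fold. The fit recovered 91% and 70% of them, and 8.52% of calls were false. In the real data 42.3% of genes were called, so these shares cannot be carried over to them.

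Members and lists were chosen with earlier results of these data known. Named genes are the 10 members, 12 regulators and carriers whatever their change, the lowest-p genes per list (up to 4), and the 3 genes most like each member. Lyve1, Pgrmc1, Mt3, Mt4 and Ftmt were named after their values were seen. The labels do not say that replicates are separate animals, so the p-values reflect only the spread among these libraries, which may be technical. No 2 replicates were alike within counting error (chi-square over degrees of freedom, 7.96 to 23.9).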

Additional observations from a re-analysis of the deposited data

Results flagged for a closer look

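Dixon's gap test was run on 96 groups of 4 values, each a gene or ratio in 1 genotype. They covered the 10 members, the regulators and carriers named whatever their change, the lowest-p genes per list and the 4 ratios. Of the 96 groups, 3 held a library far from its fellows, and chance flags about 1 in 20, or 4.8 groups. Trf, the transferrin gene, was at 94.3 CPM in Mst1-TG 3, with the next Mst1-TG library at 70.8. Cd163, the haemoglobin scavenger receptor, was at 25.1 CPM in WT 3, with the next at 21.1. The zinc importer Slc39a1 was at 81.4 CPM in WT 4, with the next at 73.4. None of the 10 iron, haem and metallothionein genes was among them.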

How the results depend on the processing

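Alas1, Fth1, Slc40a1 and Mt2 kept their direction and their call in all alternatives run, Mt2 with an adjusted p as high as 0.0464. Tfrc passed in none, but its value ran from 0.10 to 0.60. With library totals only, 7409 genes were higher and 1592 lower, so 82.3% of the calls were higher. Members were then 3 higher, pathway genes 35 higher and 11 lower (18 and 27 with TMM), Ftl1 was 0.35, Slc11a2 0.31 and Fech -0.12. Signs turned for Aco1 (0.066), Ncoa4 (0.024), Hamp (0.27), Alas2 (0.17), Mtf1 (0.18), Slc30a1 (0.22), Bach1 (0.073) and Nfe2l2 (0.25). Mt1 passed when no low-count filter was applied (-0.29, adjusted p = 7.7e-04). Alas2 turned to 0.028 with limma-voom.

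With 1 library left out, Tfrc ran from 0.10 to 0.52 and never passed, Mt1 from -0.39 to -0.19, Ftl1 from -0.027 to 0.13, Hmox1 from -0.17 to 0.42, Slc11a2 from -0.034 to 0.061, Alas2 from -0.33 to 0.36, Hamp from -0.44 to 0.47, Blvrb from -0.036 to 0.15 and Slc30a1 from -0.14 to 0.045. The cause was not tested.

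With the replicate number as a block, Mt1 passed (-0.31, adjusted p = 0.00997) and Alas2 was 0.024, with 3064 higher and 3123 lower genes. The labels do not say that the numbers pair samples. Deviations of same-numbered libraries correlated at -0.165, 0.072, 0.0244 and -0.0206, which shows no sign of pairing but cannot exclude a weak one.

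With the mean transcript length, WT levels in CPM per kilobase were 118 for Tfrc, 1659 for Fth1, 692 for Ftl1, 13.2 for Slc40a1, 23.1 for Slc11a2, 15.9 for Hmox1, 149.9 for Alas1, 48.9 for Fech, 138 for Mt1 and 23.3 for Mt2.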
